A study of Zea mays with 10 samples.

Results

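Leaf and shoot tissue of seedlings of the maize inbred B73 was profiled on the Affymetrix Maize Genome Array, and the step from midmorning to afternoon was followed here on both days of constant light. The comparison uses 4 of the 10 arrays analysed: those labelled ZT8 and ZT32 (subjective time 8 h) against ZT4 and ZT28 (subjective time 4 h), paired within day, where ZT counts hours from the first subjective dawn. All seedlings had grown for 7 days under 12 h of light and 12 h of dark before release into constant light, so that no array carries a treatment other than its time of harvest. Each array held cRNA from 3 pooled replicates of 5 seedlings, and each time point has 1 array, so no spread between replicates exists at any time and the 2 days serve as the only repeat. Seedlings of day 2 were older and had spent more time in constant light, and age, time in light and array cannot be told apart between the days.

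In plants, the circadian clock is a network of transcription factors and their regulators that continues to run when light and temperature are constant. In Arabidopsis, genes that act at dawn repress evening genes, GIGANTEA (GI) and the PSEUDO-RESPONSE REGULATOR (PRR) genes follow in turn through the day, and an evening complex that includes LUX acts near dusk. Many genes outside the clock, for photosynthesis and carbohydrate metabolism among them, peak at set times of day under its control.

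Values are signal intensities, given per array in arbitrary units, and a change is the log2 ratio of the 8 h signal over the 4 h signal of the same day. Of 17734 probe sets, 113 controls were set aside, and 12512 of the remaining 17621 (71.0%) reached a signal of 50 on at least 3 of the 10 arrays and were compared. The median signal of all probe sets was 187.6 at ZT4, 195.8 at ZT8, 203.9 at ZT28 and 198.3 at ZT32. Leaf marker genes were present, and 13 of them summed to between 92143 and 135540 on these 4 arrays. The 5 markers of other tissues (pollen, meristem and endosperm genes) summed to between 854.1 and 999 and none was at 0; levels of different probe sets are not comparable. In such bulk samples, fewer cells of a type and less RNA per cell cannot be told apart.

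Among the 4 compared arrays ZT28 stood apart in its bright signals, and it is the 4 h array of day 2. The 9 hybridization control probe sets, which measure bacterial and phage transcripts added in fixed amounts, had a median change of -0.02 on day 1 and of 0.74 on day 2. All 9 were higher at ZT32 than at ZT28, by 0.62 to 0.86 in log2. The brightest of them, cre-3, had a signal of 10071 at ZT4, 10926 at ZT8, 6977 at ZT28 and 11300.0 at ZT32, and low values were also seen at ZT20 (8251) and ZT44 (7382). Probe sets with a mean signal of 3000 to 10000 showed the same direction: 86.2% of the 770 were higher at 8 h on day 2 (median change 0.15), against 46.1% on day 1. At a mean signal of 300 to 1000 the share on day 2 was 37.1%. The part of this in the results was not tested, and values after quantile normalization, which gives all arrays the same distribution of signals, stand beside the groups of bright genes.

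Across the genome the step from 4 h to 8 h was small, and its direction was shared between days little more often than not. Of the 12512 probe sets, 3079 (24.6%) were higher at 8 h on both days and 3352 (26.8%) were lower on both. A further 3593 (28.7%) were higher and then lower, and 2484 (19.9%) lower and then higher. The balance of these 2 counts depended on scaling. They were 2948 and 2978 after quantile normalization, and 2465 and 3664 after median centring. Shares of all probe sets given below are those of the deposited scale. The daily changes had a standard deviation of 0.37 on day 1 and 0.25 on day 2. Their correlation across probe sets was 0.18 (Pearson) and 0.09 (Spearman), given as a description because probe sets are not independent replicates and all changes of a day rest on the same 2 arrays. At least 1.5-fold on both days, 37 probe sets (0.296%) were higher at 8 h and 49 (0.392%) lower, while 20 (0.16%) and 10 (0.0799%) differed by that much in opposite directions. At least 2-fold on both days, 9 (0.0719%) were higher and 5 (0.04%) lower, and none of the 12512 differed 2-fold in opposite directions. The last probe set counted as 2-fold higher had a smaller change of 2.09-fold and the next 1.98-fold, and for lower probe sets these values were 2.01-fold and 1.97-fold.

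**Figure D1:**
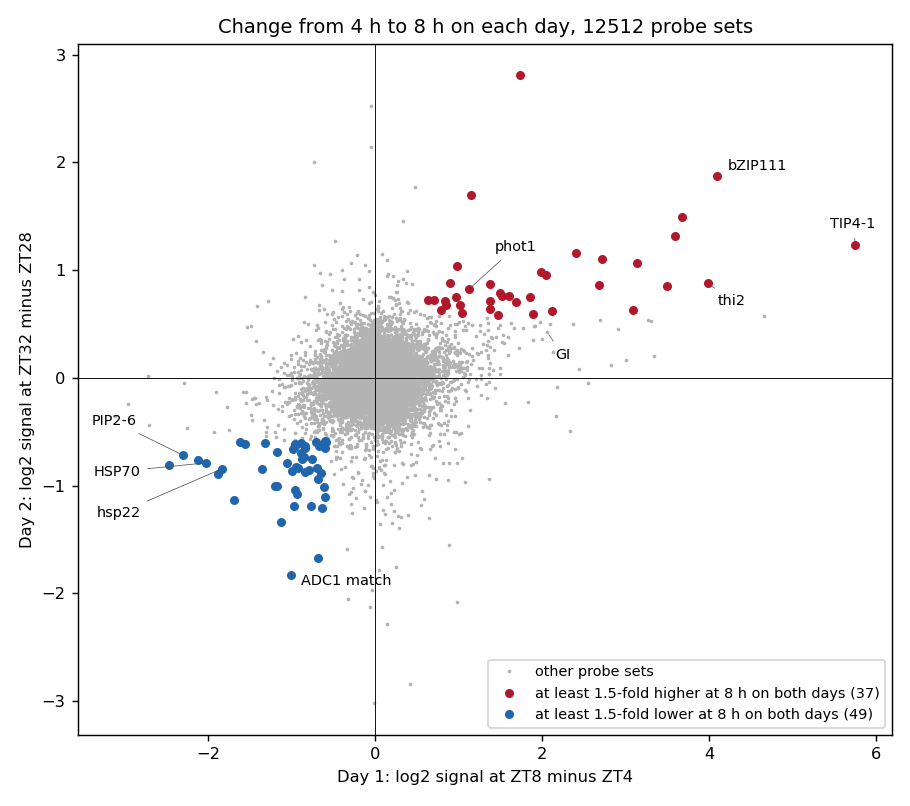
Change from 4 h to 8 h on day 2 (vertical axis) against day 1 (horizontal axis), both as log2 ratios of signals, for the 12512 probe sets compared. Probe sets at least 1.5-fold higher (37) or lower (49) on both days are marked, and most other points lie near the origin with little relation between the days.

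No single probe set passed the test across all probe sets. In a limma fit with day as a block and Benjamini-Hochberg adjustment over 12512 probe sets, 0 (0%) were called at an adjusted p of 0.05 and the smallest adjusted p was 0.28. Without adjustment, at p of 0.05 or less, there were 387 (3.09%) higher and 426 (3.4%) lower at 8 h. With 2 pairs the fit has 1 residual degree of freedom, and an exact permutation test cannot go below p = 0.5. Genes are therefore described by their signals on the 4 arrays, and "higher" or "lower" refers to those arrays only. Where the 8 h and 4 h groups are said not to overlap, this is description. The share of all probe sets without overlap was not computed, and many of the genes were picked by their changes on the same 4 arrays. Lack of overlap is therefore no separate support. Centring each array on its median called 54 probe sets. Of the 12512, only 2616 carry a gene name or function, many because they had been called rhythmic on these samples, so counts over gene lists describe a chosen minority and are not independent evidence of time-of-day change.

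Among the genes higher at 8 h, a transcription factor had the largest change that held on both days of those with a name. The bZIP factor LOC100275351 (bZIP111), matched to Arabidopsis BZO2H3, had signals of 96.1 at ZT4, 1642 at ZT8, 93.6 at ZT28 and 344 at ZT32. Both 8 h arrays were above both 4 h arrays, by 17.1-fold on day 1 and 3.67-fold on day 2, with a mean log2 change of 2.99 ± 0.45 (limma SE, n = 2 days). At the other 6 times it ran from 26.7 at ZT0 to 609 at ZT36, so that the afternoon level of day 1 was not met again. LOC100279540, matched to the zinc finger homeodomain factor ZFHD1, had signals of 105 at ZT4, 297 at ZT8, 109 at ZT28 and 188 at ZT32, with the 2 arrays at 8 h above both at 4 h. LOC542081 (sig3), a sigma factor of the chloroplast RNA polymerase, went from 80 to 218 on day 1 and from 155 to 232 on day 2.

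The tonoplast aquaporin LOC541897 (TIP4-1), which conducts water across the vacuolar membrane, had signals of 32 at ZT4, 1724 at ZT8, 549 at ZT28 and 1289 at ZT32. Its change was 5.75 on day 1 and 1.23 on day 2, and the ZT4 signal lay below 50, so the fold of day 1 rests on a dim array. LOC542715 (thi2), an enzyme of thiamine synthesis, had 416 at ZT4, 6578 at ZT8, 2734 at ZT28 and 5021 at ZT32. For both genes ZT28 lay far above ZT4, while the 8 h array was the higher of its day each time.

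The blue light receptor LOC541663 (phot1), which directs phototropism and chloroplast movement, had signals of 576 at ZT4, 1260.5 at ZT8, 428 at ZT28 and 759 at ZT32. Its changes of 1.13 on day 1 and 0.83 on day 2 were close to each other (mean 0.98, moderated limma SE 0.13), and the groups did not overlap. LOC100194205, matched to the Nudix hydrolase NUDT8, went from 204 to 528 on day 1 and from 183 to 335 on day 2. The glutathione S-transferase LOC100191639 went from 150.3 to 545 on day 1 and from 242 to 407 on day 2. Of 31 glutathione S-transferases, 4 (12.9%) were higher and 8 (25.8%) lower on both days, against 24.6% and 26.8% of all probe sets. The dehydrogenase AC234163.1_FGP004, matched to ELI3-1, went from 1715 to 3064 on day 1 and from 1378 to 2257 on day 2. In these 3 genes, too, both 8 h arrays lay above both 4 h arrays. LOC100037827, matched to the chloroplast protein PIFI, went from 175 to 1486 on day 1 and from 1274 to 1976 on day 2. The ZT28 signal of this gene lay close to that of ZT8, though both 8 h arrays were above both 4 h arrays. LOC542370 (cat3), a catalase that removes hydrogen peroxide, went from 3591 to 6619 on day 1 and from 2727 to 4066 on day 2, while of 20 antioxidant enzymes 4 were higher and 9 lower on both days. The cysteine protease LOC542701 (ccp1) was brighter, at 4958 at ZT4, 10512 at ZT8, 7409 at ZT28 and 10089 at ZT32. In cat3 and ccp1 the groups did not overlap either. The part of the low bright signals of ZT28 in the day 2 changes of these 2 genes was not tested.

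**Figure D2:**
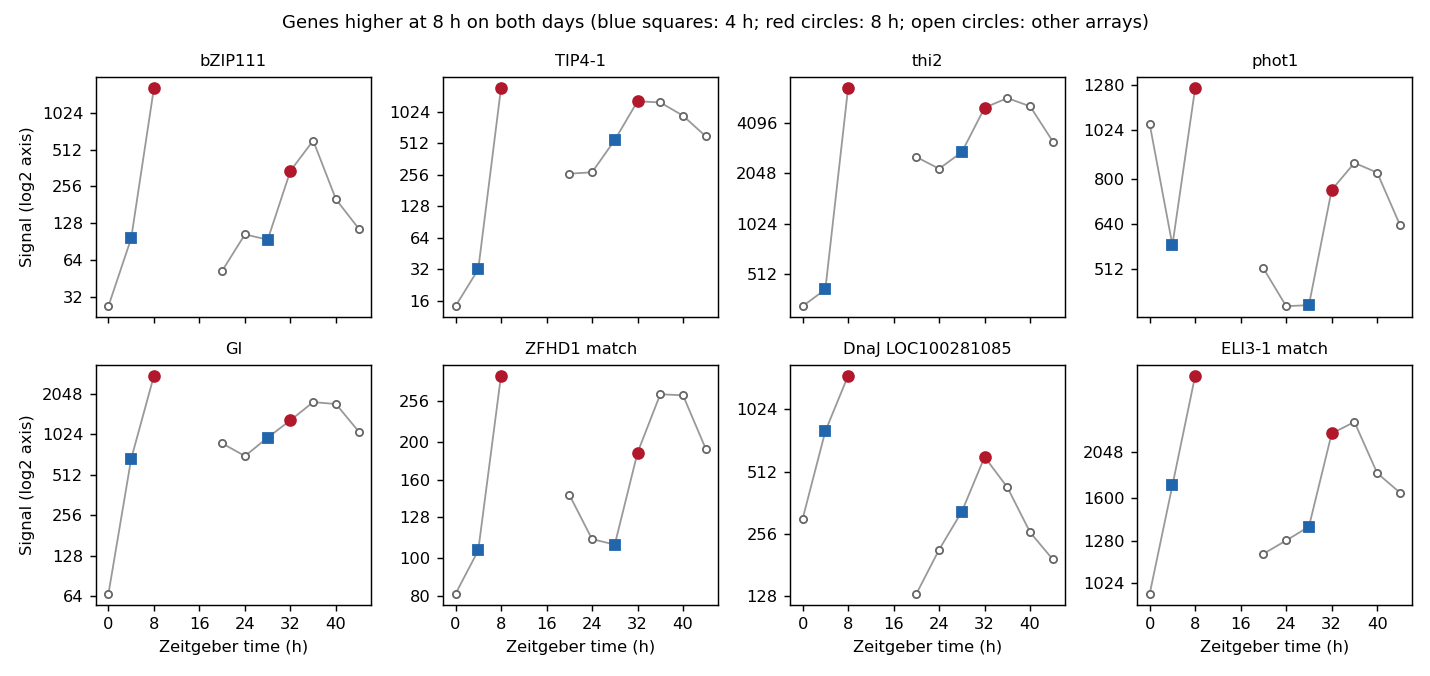
Signals (log axis, arbitrary units) of 8 genes higher at 8 h on both days, on the 10 arrays ordered by ZT in hours, with 1 array per point. The 4 h and 8 h arrays are marked, and in each panel the 8 h signal lies above the 4 h signal of its day.

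Clock genes leaned to higher signals at 8 h. Of 9 measured clock and flowering time genes, 6 were higher on both days, 0 were lower on both and 3 were higher and then lower, against 24.6%, 26.8% and 28.7% of all probe sets. Their median change was 0.58 on day 1 and 0.12 on day 2, where all probe sets had 0.02 and -0.02, and 4 of the 9 had an unadjusted p of 0.05 or less. GI (LOC100147733), which acts in the clock and in flowering time, had signals of 671 at ZT4, 2784 at ZT8, 965 at ZT28 and 1298 at ZT32. It was above its 4 h level on both days, by 2.05 on day 1 and 0.43 on day 2 in log2, and both 8 h arrays lay above both 4 h arrays. LOC542562, matched to the clock-controlled RNA-binding protein CCR2, went from 2514 to 6142 on day 1 and from 4006 to 4991 on day 2. PRR7 (LOC100280240) went from 821 to 885 on day 1 and from 502 to 651 on day 2, and its groups overlapped. In a fit of all 10 arrays the PRR7 change turned to -0.22 without ZT8 and to -0.40 without ZT28, and that of GI to -0.01 without ZT8. The PRR gene LOC100272683 (PRR59) differed more between days, going from 46.6 to 252 on day 1 and from 172 to 181 on day 2. LUX (LOC100280967), a member of the evening complex, was dim on day 1, going from 6.03 to 42.8 on day 1 and from 156 to 169 on day 2. The flowering gene FCA (LOC100383162) went from 62.9 to 74.6 on day 1 and from 47.8 to 77 on day 2. The other 3 genes were 2 CONSTANS-LIKE relatives and LOC100147736 (conz1), which were higher on day 1 and lower on day 2; conz1 went from 91.1 to 118 on day 1 and from 148 to 133 on day 2.

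Photoreceptor and light signalling genes divided. Of 4 measured, phot1 and the transcription factor LOC542493 (GLK13) were higher on both days, while matches to PAT1 and to an NPH3 family protein were lower on both. Of all probe sets, 24.6% were higher and 26.8% lower on both days.

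The named genes at least 2-fold lower at 8 h on both days were a Prp18 splicing factor match, a small heat shock protein and an arginine decarboxylase match. LOC100193626, matched to arginine decarboxylase ADC1, the entry step of a polyamine pathway, had signals of 838 at ZT4, 415 at ZT8, 1574 at ZT28 and 444 at ZT32. It was 2.02-fold lower on day 1 and 3.55-fold lower on day 2, and the groups did not overlap. Its log2 changes were -1.01 and -1.83, with a mean of -1.42 (moderated limma SE 0.19, not the spread between the days). On other arrays it varied widely, from 252 at ZT36 to 1522 at ZT40. The glucanase LOC100037765 (geb1), of a family that breaks beta-1,3-glucans, had 342 at ZT4, 178 at ZT8, 295 at ZT28 and 139.8 at ZT32. The calcium-binding EF-hand gene AC225718.2_FGP006 went from 474 to 246 on day 1 and from 482 to 271 on day 2. A splicing factor matched to Prp18, GRMZM2G073041, was 2-fold lower on both days but was dim (from 51.2 to 15.8 on day 1 and from 60.4 to 27.4 on day 2).

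Water and dehydration genes joined them. The aquaporin LOC541891 (PIP2-6), a plasma membrane water channel, had signals of 1854 at ZT4, 377 at ZT8, 433 at ZT28 and 263 at ZT32, with changes of -2.30 on day 1 and -0.72 on day 2, and both 8 h arrays lay below both 4 h arrays. The tonoplast aquaporin LOC541687 (TIP2-3) went from 298 to 196 on day 1 and from 219 to 101 on day 2. The dehydrin LOC542251 (dhn2), of proteins that accumulate when cells lose water, had 1606 at ZT4, 872 at ZT8, 2108 at ZT28 and 1249 at ZT32; all 3 of its probe sets were lower at 8 h on both days.

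**Figure D3:**
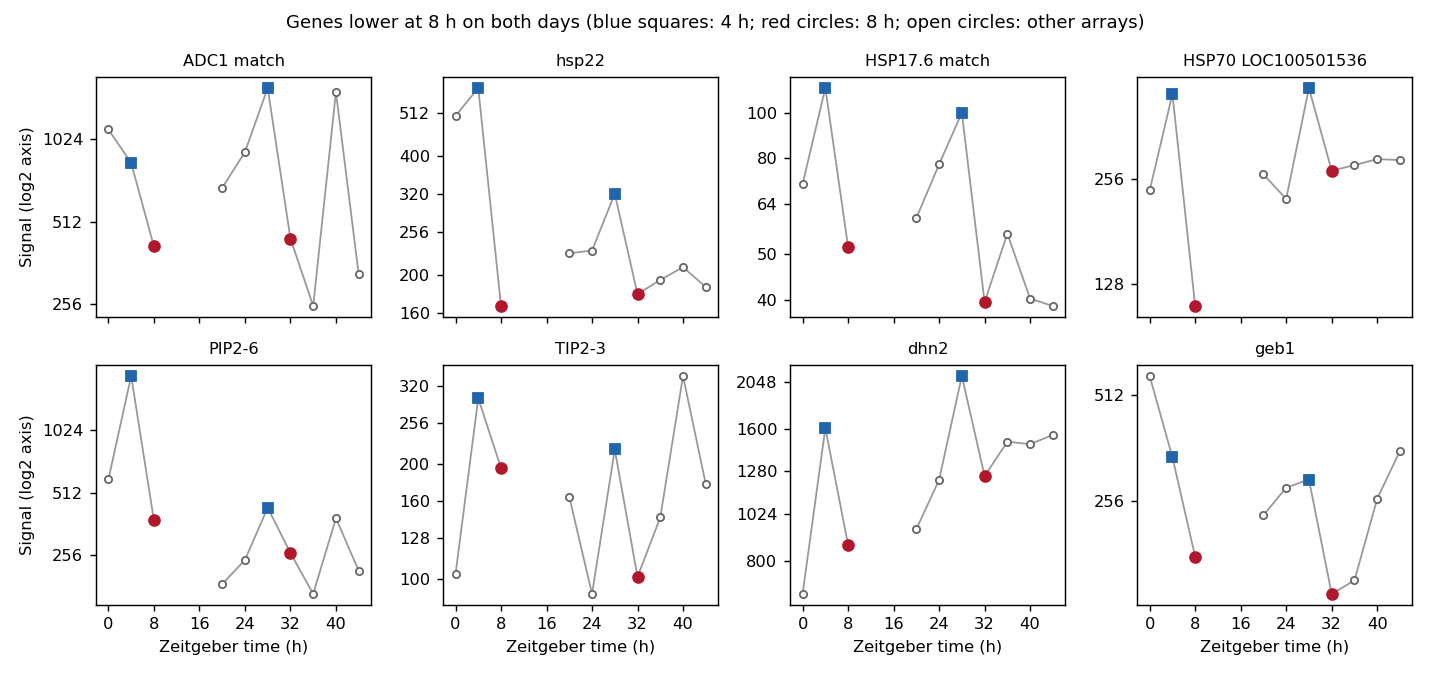
Signals (log axis, arbitrary units) of 8 genes lower at 8 h on both days, on the 10 arrays ordered by ZT in hours, with 1 array per point. The 4 h and 8 h arrays are marked, and in each panel the 8 h signal lies below the 4 h signal of its day.

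Heat shock proteins and chaperones, which keep other proteins folded, are described by class. Of 48 measured genes, 21 were lower at 8 h on both days and 13 higher, against 26.8% and 24.6% of all probe sets. At an unadjusted p of 0.05 or less, 16 were lower and 6 higher, beside 3.4% and 3.09% of all probe sets. The 10 small heat shock proteins, which bind unfolding proteins without ATP, had median changes of -0.80 and -0.45, with 7 lower on both days and 1 higher. The mitochondrial hsp22 (LOC542602) had signals of 593 at ZT4, 167 at ZT8, 321 at ZT28 and 179 at ZT32. The match to HSP17.6 (LOC100191552) had 113 at ZT4, 51.8 at ZT8, 100.03 at ZT28 and 39.5 at ZT32, and hsp18 (LOC542293) 210.3 at ZT4, 85 at ZT8, 140.2 at ZT28 and 98.9 at ZT32. In each of these 3 genes both 8 h arrays lay below both 4 h arrays. The gene higher on both days was a match to HSP26.5-P (GRMZM2G429396), which went from 103 to 661 on day 1 and from 271 to 493 on day 2.

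The ATP-dependent chaperones were mixed. Of 9 HSP70 genes, 5 were lower and 2 higher on both days, against 26.8% and 24.6% of all probe sets, with medians of -0.07 and -0.22. The HSP70 gene LOC100501536 had signals of 450.0 at ZT4, 111 at ZT8, 468 at ZT28 and 271 at ZT32, and its groups did not overlap. The 2 HSP100 genes measured, too few to describe a class, were lower on both days. Among them hsp101 (LOC541780), which takes apart protein aggregates, went from 230.1 to 61.4 on day 1 and from 124 to 113 on day 2. An HSP90 gene matched to HSP81-4 (LOC100272368) went from 1114 to 606 on day 1 and from 1041 to 868 on day 2. The heat shock factor match HSFB2A (GRMZM2G165272), a transcription factor of the response and not a member of this list, went from 199.8 to 108 on day 1 and from 201 to 137 on day 2.

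DnaJ proteins, the partners that hand substrates to HSP70, had 9 of 16 higher and 3 lower at 8 h on both days, against 24.6% and 26.8% of all probe sets, with medians of 0.16 and 0.17. The difference between the chaperone classes was not tested. LOC100281085 had signals of 804 at ZT4, 1489.7 at ZT8, 329 at ZT28 and 604 at ZT32, and its changes of 0.89 on day 1 and 0.88 on day 2 were nearly the same. Its groups overlapped, because ZT32 lay below ZT4. LOC100285610 went from 283 to 1466 on day 1 and from 575 to 814 on day 2, and LOC100192597 from 152 to 482 on day 1 and from 110.4 to 152 on day 2.

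**Figure D4:**
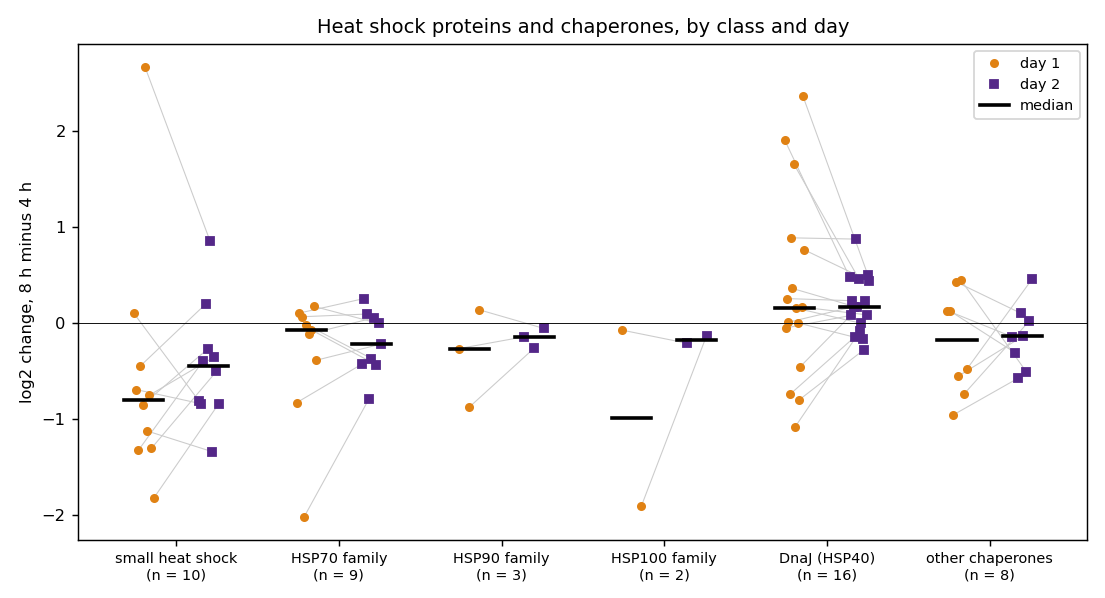
Change from 4 h to 8 h (log2 ratio of signals) of the 48 chaperone genes by class, on day 1 and day 2, with 1 point per gene and day. Most small heat shock proteins lie below 0 on both days (medians -0.80 and -0.45), while the DnaJ medians are 0.16 and 0.17.

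Neighbouring arrays show whether 4 h was a peak. A peak at both midmornings means a higher signal at ZT4 than at ZT0 and ZT8, and at ZT28 than at ZT24 and ZT32. Such a peak was seen in 6 of the 10 small heat shock proteins and in 9.77% of all probe sets. The rule requires signals at 4 h above those at 8 h on both days. As 7 of the 10 had been described above as lower at 8 h on both days, nothing is read from this difference. Of the 49 probe sets at least 1.5-fold lower on both days 22 (44.9%) had such a peak. These were chosen for signals at ZT4 and ZT28 above those at ZT8 and ZT32, so that nothing is read from this share either.

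Water channels were lower at 8 h more often than higher, mainly on day 1. Of 27 aquaporin genes, 13 were lower on both days and 4 higher, against 26.8% and 24.6% of all probe sets, with medians of -0.27 and -0.05. At an unadjusted p of 0.05 or less, 8 were lower and 1 higher, beside 3.4% and 3.09% of all probe sets. The plasma membrane aquaporin PIP2-5 (LOC542619) had signals of 2440.2 at ZT4, 877 at ZT8, 1441 at ZT28 and 1095 at ZT32, with both 8 h arrays below both 4 h arrays. PIP1-3 (LOC541886) went from 3947 to 2251 on day 1 and from 2286 to 2119 on day 2, and the tonoplast aquaporin TIP2-2 (LOC541895) from 69.5 to 57.5 on day 1 and from 125 to 52.1 on day 2. Summed over the 27 genes, the signal was 68675 at ZT4, 53102 at ZT8, 46280.0 at ZT28 and 49440.0 at ZT32, so the sum was lower at 8 h on day 1 and higher on day 2. After median centring of the arrays the median of day 2 was 0.00, and after quantile normalization it was -0.12. Probe sets whose design takes up several family members cannot tell these genes apart.

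Nitrogen and amino acid genes had 13 of 29 lower on both days and 1 higher, against 26.8% and 24.6% of all probe sets, with medians of -0.14 and -0.05. At an unadjusted p of 0.05 or less, 7 were lower and 1 higher, where all probe sets had 3.4% and 3.09%. Glutamine synthetase gln2 (LOC542400), which joins ammonium to glutamate, went from 346 to 155 on day 1 and from 194 to 143 on day 2. Nitrite reductase (LOC542264), a step before it, went from 389 to 216 on day 1 and from 293 to 229 on day 2, and a further probe set for the gene was also lower on both days. In gln2 and nitrite reductase both 8 h arrays lay below both 4 h arrays. Nitrate reductase (NNR1) went from 2049 to 1024 on day 1 and from 1131 to 1115 on day 2, with a change of -0.02 in log2 on day 2. The tryptophan synthase gene orp1 (LOC732842) went from 459.9 to 276 on day 1 and from 302 to 240.0 on day 2. The member higher on both days, a match to a cysteine synthase gene (LOC100216991), went from 24.9 to 239 on day 1 and from 109.9 to 159.5 on day 2, with ZT4 below 50.

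Wall genes had 1 of 40 higher and 18 lower at 8 h on both days, and 16 were lower and then higher, against 24.6%, 26.8% and 19.9% of all probe sets. Their median was -0.21 on day 1 and -0.01 on day 2. A match to the xyloglucan enzyme XTR4 (LOC100191978), which remodels wall polymers, had signals of 183 at ZT4, 106 at ZT8, 173 at ZT28 and 95.7 at ZT32, and its groups did not overlap. A match to expansin EXPB2 (GRMZM2G021427) went from 1093 to 512 on day 1 and from 362 to 260.1 on day 2, and xet1 (LOC542312) from 762 to 642 on day 1 and from 515 to 411 on day 2. A match to EXORDIUM (LOC100281252), a growth gene of Arabidopsis outside this list, went from 179 to 115 on day 1 and from 252 to 109 on day 2.

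Of 6 carotenoid and abscisic acid genes, 4 were lower on both days and none higher on both, against 26.8% and 24.6% of all probe sets. The carotene hydroxylase LOC732825 (crtRB1), which makes zeaxanthin, had 1598 at ZT4, 1024 at ZT8, 2121 at ZT28 and 1629 at ZT32. Its 4 h and 8 h signals overlapped between days, since ZT32 lay above ZT4. Among 16 dehydration and cold genes 10 were lower and 4 higher on both days, against 26.8% and 24.6% of all probe sets. Their summed signal was higher at 8 h each time (25290.0 at ZT4, 30869 at ZT8, 30391 at ZT28 and 33040.0 at ZT32). The dehydrin dhn1 (LOC542373) went from 1484 to 1025 on day 1 and from 1095 to 916 on day 2, though its change in a fit of all 10 arrays turned to 0.33 without ZT4 and to 0.15 without ZT32, while the cysteine protease mir3 (LOC100037824) was higher (from 3886 to 5492 on day 1 and from 5072 to 6378 on day 2).

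Counts for carbon storage genes lay near the shares of all probe sets (24.6% higher and 26.8% lower on both days). Of 18 starch genes 5 were higher and 5 lower, and of 13 sucrose and hexose genes 3 and 5. A match to the glucan phosphatase SEX4 (LOC100216768), needed for starch breakdown in Arabidopsis, went from 480.4 to 671 on day 1 and from 596 to 739.9 on day 2, and the sucrose transporter sut4 (LOC100240688) from 607 to 1241 on day 1 and from 1022 to 1132 on day 2. Lists of 40 ribosomal and translation genes (11 higher, 12 lower) and 39 ubiquitin and proteasome genes (9 and 10) lay near these shares as well. Beside the same shares, of 31 lipid genes 3 were higher and 14 lower, and of 25 histone and chromatin genes 9 and 3. After quantile normalization these counts were 4 and 9 for lipid genes, and 9 and 2 for histone and chromatin genes.

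Photosynthesis genes were higher at 8 h mainly on day 2, as the control transcripts were. Of 19 light harvesting and photosystem genes, 11 were lower and then higher, 7 higher on both days and 1 lower on both, against 19.9%, 24.6% and 26.8% of all probe sets, with medians of -0.02 and 0.47. Their summed signal was 168580.0 at ZT4, 165570.0 at ZT8, 109300.0 at ZT28 and 152140.0 at ZT32. The hybridization controls had a day 2 median of 0.74, and 17 of the 19 genes were lower at ZT28 than at both ZT24 and ZT32 (89.5%, against 24.2% of all probe sets). After quantile normalization the median on day 2 was 0.12, with 17 of 19 higher. The antenna gene lhcb3 (LOC542530), which binds chlorophyll, had signals of 13443 at ZT4, 14380.0 at ZT8, 8270.1 at ZT28 and 12743 at ZT32, where ZT28 stood below the other 3.

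Of 14 Calvin cycle genes 12 were lower and then higher (19.9% of all probe sets were), with medians of -0.15 and 0.12, and of 11 C4 carbon fixation genes 7 (-0.16 and 0.20). On day 2 after quantile normalization these medians were 0.01 for the Calvin cycle and -0.01 for C4 genes, so the direction for C4 genes turned. The counts lower and then higher were then 7 of 14 and 3 of 11. Rubisco activase (LOC541712), which frees Rubisco of inhibitors, went from 4038 to 2773 on day 1 and from 3319 to 3649.6 on day 2. The small subunit of Rubisco (LOC100279574) went from 12307 to 11936 on day 1 and from 8400.2 to 12048 on day 2, and PEP carboxylase pep1 (LOC542372), which makes the first C4 acid, from 10686 to 11497 on day 1 and from 7846 to 10705 on day 2. Carbonic anhydrase (LOC100382491) was lower at 8 h each time (from 4890.2 to 3161 on day 1 and from 4435 to 4168 on day 2). The part of the low bright signals of ZT28 in these values was not tested.

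**Figure D5:**
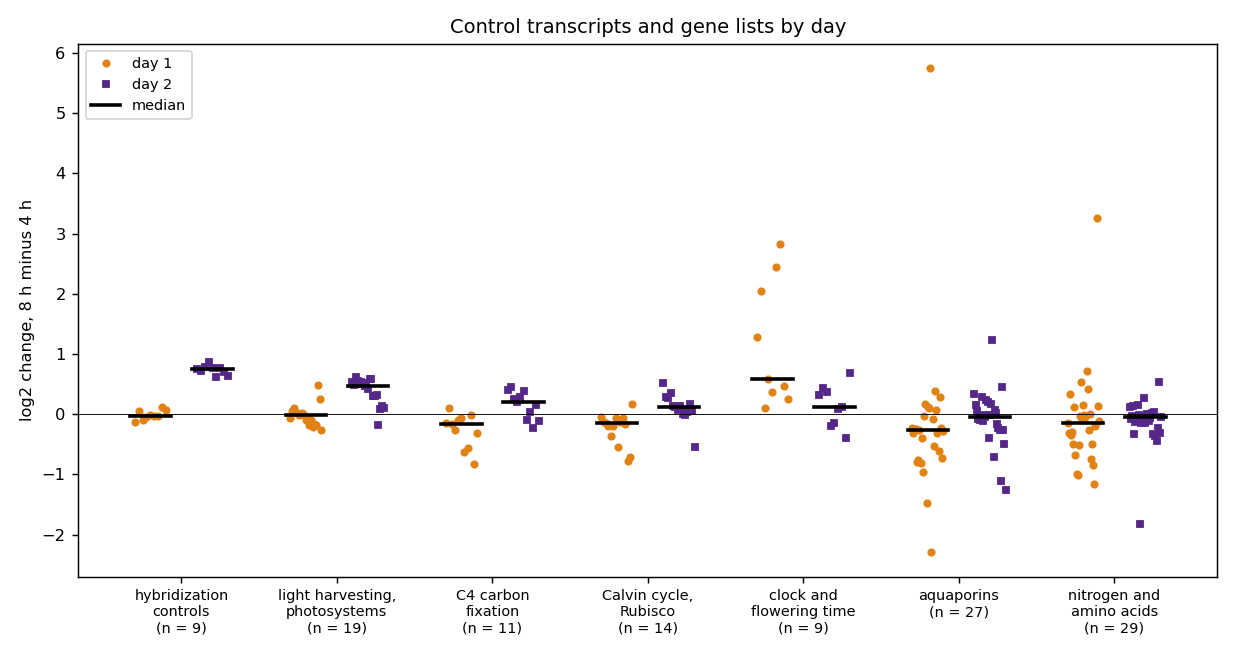
Change from 4 h to 8 h (log2 ratio of signals) on day 1 and day 2 for the hybridization controls and for 6 gene lists, with 1 point per probe set or gene. On day 2 the 9 controls lie between 0.62 and 0.86 and the light harvesting genes have a median of 0.47, while clock genes are higher mainly on day 1.

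The 6 arrays outside the comparison describe the 37 probe sets at least 1.5-fold higher on both days further. They entered the choice of the 37 only through the signal filter, and 5 of the 37 needed them to pass it. At ZT36, subjective dusk, all 37 were above ZT24 (against 58.8% of all probe sets), 35 were above ZT20 (94.6%, against 54.1%) and 33 were above ZT44 (89.2%, against 45.7%). The hybridization controls were low at ZT20 and ZT44 as well as at ZT28, and the part of this in these counts was not tested. At ZT0, the first array of the course, 31 of the 37 lay below ZT24 (83.8%, against 48.4%). Among the 32 that pass the filter on the 4 compared arrays alone, a restriction added after seeing the data, these counts were 32, 30, 28 and 28. Of the 49 lower probe sets, 17 were above ZT24 at ZT36 (34.7%).

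Probe sets with large changes on day 1 mostly had the same sign on day 2. Choosing by the change of 1 day favours a smaller size on the other, so the sizes are not compared between days. The 23 at least 2-fold higher on day 2 had a median change of 1.23 on day 2 and of 0.33 on day 1. Of 155 probe sets at least 2-fold higher on day 1 (1.24%), 128 (82.6%) were higher on day 2, where 44.5% of all probe sets were, but their median change was 0.26 against 1.35 on day 1. In 146 of the 155, ZT28 was above ZT4. The 155 were chosen for a ZT4 signal at least 2-fold below ZT8, which favours a low ZT4, so nothing is read from this count. Of 89 at least 2-fold lower on day 1 (0.711%), 70 (78.7%) were lower on day 2, against 55.5% of all, with a median of -0.23. Changes of day 2 were less shared: 14 of 23 at least 2-fold higher on day 2 (0.184%) were higher on day 1 (60.9%, against 53.3% of all), and 28 of 54 lower ones (0.432%) were lower (51.9%, against 46.7%).

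Named genes are a minority chosen in part as rhythmic on these samples, so many of the probe sets that differed most have no name here. Of the 9 probe sets 2-fold higher on both days only 2 are named, and of the 5 lower 3 are. Of the unnamed, the probe set with the largest fold of day 2 among these 9 had signals of 87.1 at ZT4, 290.1 at ZT8, 111 at ZT28 and 778 at ZT32, a change of 1.74 on day 1 and 2.81 on day 2, larger on day 2, and its groups did not overlap. An unnamed probe set just inside the 2-fold threshold was lower at 8 h, going from 339.9 to 148 on day 1 and from 378 to 188 on day 2. The study had singled out 60 genes of photosynthesis, carbohydrate, wall and growth on these samples, and they are no independent evidence. Of these, 11 were higher and 21 lower on both days, against 24.6% and 26.8% of all probe sets. Beside the same shares, carbohydrate genes among them had 9 of 16 lower and 1 higher, and growth and development genes 5 of 12 higher and 2 lower. These differences were not tested.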

How the data were processed

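The arrays were grouped by the time in their labels. The authors deposited linear signal intensities, which their processing notes name as MAS5 output (software version not given in the sources used); the number of arrays limits precision. Values under 1 (2968 in all) were set to 1 before log2. Probe sets that reached 50 on 3 or more of the 10 arrays entered limma 3.58.1 (R 4.3.3): lmFit with day as block, and eBayes whose variance trend follows intensity (5.63 prior degrees of freedom). Benjamini-Hochberg adjustment used a threshold of 0.05. The fit was also run on simulated data with independent noise of the same size for all probe sets and no shift shared by an array. That setting is simpler than these arrays, so it does not show how the fit behaves on them. Other steps used Python 3.11.15, numpy 2.4.6 and pandas 2.3.3. The alternatives were quantile normalization, median centring, a floor of 50, a pseudocount of 32, no filter or a filter of 100, other fold thresholds, other variance settings, the day left out, all 10 arrays, and each of the 4 arrays left out. Arrays of ZT12 and ZT16 were not used here.

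Gene names come from the platform annotation (1452 probe sets with 1 gene, 1 with several and 16168 with none; 1377 matched to RefSeq symbols of Zm-B73-REFERENCE-NAM-5.0). Gene models and Arabidopsis or rice functions come from a supplementary annotation held in part, mostly of probe sets called rhythmic. Of 3097 named probe sets 2616 passed the filter, for 2304 genes, and 769 genes fell in 29 lists. Named are the 15 genes with the largest changes in each direction that held on both days, up to 4 members of each list, the 60 genes of the study's key processes, the 5 largest opposite changes in each order, and the lowest p; 14 further probe sets were chosen after their values were seen. The members, lists and rule were chosen with earlier results of these data known. A gene with several probe sets entered a list through the brightest.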

Additional observations from a re-analysis of the deposited data

Results flagged for a closer look

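The 10 genes given here had the largest changes of opposite sign among named genes, 5 in each order, ranked by the smaller daily change. In each, the 8 h array lay above the 4 h array on 1 day and below it on the other. Not all of the 10 reached 1.5-fold on both days. The difference between the days was not tested, since each day has 1 array at each time. Among all 12512 probe sets, 20 (0.16%) were at least 1.5-fold higher and then lower, and 10 (0.0799%) the reverse.

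Of those higher on day 1 and lower on day 2, GRMZM2G090245, matched to GER1, had log2 changes of 1.36 and -0.94. LOC100037814 had 0.87 and -0.95, and LOC541800 (ys1), a transporter of iron bound to phytosiderophores, had 0.73 and -0.94. LOC103636059 had 0.58 and -1.13. The oxophytodienoate reductase opr1 had 0.95 and -0.51.

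In the other order, LOC542676 (aox3), an alternative oxidase of mitochondria, had log2 changes of -1.28 and 0.71. AC213621.5_FGP005, matched to a ribosomal protein L36, had -0.67 and 0.68. The lipoxygenase lox1 had -0.63 and 0.86, and the expansin LOC542649 (expB7) had -0.52 and 0.49. LOC100276005 had -1.49 and 0.48. The hybridization controls were higher at ZT32 than at ZT28 by 0.62 to 0.86, and their part in the changes of day 2 was not tested.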

How the results depend on the processing

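The call of 0 probe sets in the limma fit was moved by median centring (54 calls, 33 higher and 21 lower) and by log2(signal + 32) (3 calls). Centring makes the array medians equal but does not set the median change to 0. Over all probe sets that median was 0.02 on day 1 and -0.02 on day 2 before centring. After centring it was -0.02 on day 1 and 0.03 on day 2. Fits of all 10 arrays that left out ZT4, ZT8, ZT28 or ZT32 gave 0 to 1 calls, the single call without ZT8. The fit pairs the arrays by day, taken from their times, since the replicate number in the labels is the same for all. With no replicate block (day left out) 0 were called and 277 had p of 0.05 or less before adjustment.

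The count of probe sets 2-fold higher on both days (9) became 4 with log2(signal + 32), 174 with no filter, 37 at 1.5-fold and 0 at 4-fold. That of lower probe sets (5) became 3 with signals under 50 set to 50, 0 with log2(signal + 32), 169 with no filter, 2 with a filter of 100, 49 at 1.5-fold, 0 at 4-fold and 3 with signals of at least 100 at the higher time. The correlation between days (0.18) was 0.0401 with no filter. A pseudocount and a floor shrink the changes of dim probe sets by construction; otherwise the cause was not tested. Of the genes named, the changes of PRR7 turned to -0.22 without ZT8 and to -0.40 without ZT28, and that of GI to -0.0139 without ZT8. The change of dhn1 turned to 0.33 without ZT4 and to 0.15 without ZT32. Among 58 named probe sets that had the same sign on both days, quantile normalization turned no mean change. Some counts over gene lists did move with it. Genes lower on both days went from 1 to 6 for the Calvin cycle, from 3 to 6 for C4 and from 14 to 9 for lipids. Clock and flowering time genes stayed at 6 higher and 0 lower on both days.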
